A study of Homo sapiens with 6 samples.

Results

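The subject is a set of 10 genes that hold or open the gate out of G1: the D cyclins CCND2 and CCND3, the kinases CDK4 and CDK6, the inhibitors CDKN2C, CDKN2D and CDKN1B, the pocket proteins RB1 and RBL1, and the transcription factor E2F1. They were chosen by symbol from a table of 11363 genes, and all 10 were listed in it. The choice was made with the large rise of CCND2 in these libraries in view, and the question put to the set was whether other D cyclins balance that rise. The contrast between the groups therefore describes these genes and is not independent support for anything said of them.

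RNA was sequenced from NOMO-1, an established cell line grown from a human monocytic leukaemia (AML). The MSLN-KO group (3 libraries) was made of NOMO-1 cells with a knockout of MSLN, the gene of the surface protein mesothelin, and the WT group (3 libraries) of NOMO-1 cells labelled wild type. The labels name no further treatment in either group and do not say how the knockout was made, whether the MSLN-KO cells are 1 clone, or whether replicates were separate cultures. Every p-value below therefore rests on the spread among these 6 libraries, which may be technical.

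D cyclins are made when growth signals reach a cell, and each one binds CDK4 or CDK6. The active pair phosphorylates RB1 and its relatives, which frees E2F factors to switch on the genes of S phase. INK4 inhibitors such as CDKN2C (p18) and CDKN2D (p19) bind CDK4 and CDK6 alone, while the CIP/KIP inhibitor CDKN1B (p27) binds whole cyclin and kinase complexes. In leukaemias with KMT2A fusions, the class to which NOMO-1 belongs, CDK6 is known as the kinase of this pair that the cells depend on.

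Values are CPM, the reads of a gene relative to the library total (counts per 1e+06), after TMM scaling between libraries. The listed genes held between 25230229 and 30804446 reads in the MSLN-KO libraries and between 23665824 and 25765425 in the WT libraries, as computed from the smallest step between values. MSLN stood at 45.7, 46.9 and 45.3 CPM in MSLN-KO, against 153, 123 and 106 CPM in WT, in the direction of the labels. All 8 monocytic markers examined were listed. Their summed level ran from 7346 to 7812 CPM in MSLN-KO and from 15912 to 16555 CPM in WT, mostly from LYZ (6081 CPM on average in MSLN-KO, 14540 CPM in WT). CD14, CSF1R, ITGAM and CD68 were lower as well, CD33 (74.7 CPM in MSLN-KO, 56.7 CPM in WT) and FCGR1A (59.4 CPM in MSLN-KO, 34.2 CPM in WT) were higher, and PTPRC was not called. The part of these differences in the results below was not tested. None of the 4 markers each of T, erythroid and stromal cells was listed. Of 4 B cell markers only CD79B was listed (3.65 to 4.31 CPM in MSLN-KO, 13 to 15.3 CPM in WT), and of 5 epithelial markers only KRT18 (7.07 to 9.05 CPM in MSLN-KO, 7.97 to 9.71 CPM in WT).

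E2F factors also bind the promoters of some members of the set. RefSeq promoters (GRCh38.p14) were matched for 9 of the 10 genes, all but CCND2, and the 250 bases before each start were searched on both strands for 3 spellings of the E2F site, TTTCCCGC, TTTGGCGC and TTTCGCGC. The 9 genes had 14 such promoters in all. Of these, the promoters of E2F1 and RBL1 printed below held a match, against 2.32% of 35116 promoters of the same length. Both lie on the minus strand of chromosome 20, at chr20:33686386-33686635 for E2F1 and chr20:37095998-37096247 for RBL1. They are shown, 5′ to 3′ and ending at the base before the start, because their own levels are set beside those of other E2F targets further on; capitals mark the matches.
E2F1: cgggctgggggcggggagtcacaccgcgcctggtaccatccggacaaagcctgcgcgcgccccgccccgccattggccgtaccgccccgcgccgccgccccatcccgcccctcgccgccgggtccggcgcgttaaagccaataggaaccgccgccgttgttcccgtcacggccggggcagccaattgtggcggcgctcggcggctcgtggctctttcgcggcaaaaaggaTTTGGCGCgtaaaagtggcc
RBL1: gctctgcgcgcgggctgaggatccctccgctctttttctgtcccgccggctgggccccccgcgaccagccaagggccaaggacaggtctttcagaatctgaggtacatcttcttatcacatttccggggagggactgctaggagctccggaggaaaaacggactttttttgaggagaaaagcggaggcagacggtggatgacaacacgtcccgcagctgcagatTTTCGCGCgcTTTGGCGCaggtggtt
The matches do not overlap each other. The letters describe these windows only and say nothing of binding in these cells.

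CCND2 (ENSG00000118971.9, GRCh38 chromosome 12, 4273772 to 4305350, plus strand), which encodes cyclin D2, was close to silent in WT and clearly expressed in MSLN-KO. It stood at 47.0, 49.3 and 41.8 CPM in the MSLN-KO libraries, against 0.816, 1.93 and 1.26 CPM in the WT libraries. Every MSLN-KO library lay far above every WT library, and the ratio of the group means was 34.4. The log2 change on the log2(CPM + 1) scale was 4.35 (SE 0.15), the 8th largest rise of the 11363 genes. These values are the reason the set was drawn up, so they are a description: no p is given for them, and the fitted call of CCND2 was bound to follow from the choice. CCND2 passed the authors' filter on low values only through the MSLN-KO libraries, since the table keeps a gene when 3 or more of its values are at 4.90 CPM or above. In bulk RNA a larger share of cells with transcript and more transcript per cell cannot be told apart.

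The WT level of CCND2 was low but not nil. It rested on 20, 50 and 30 reads in WT replicates 1 to 3, with exact 95% Poisson intervals of 12.2 to 30.9, 37.1 to 65.9 and 20.2 to 42.8 reads, against 1209, 1310 and 1329 reads in MSLN-KO replicates 1 to 3. The intervals cover counting error only. The highest WT library held 2.37 times the CPM of the lowest, and the intervals of WT replicates 1 and 2 do not overlap. An opposite-strand transcript (CCND2-AS1) and a same-strand annotated gene share exonic sequence with CCND2, neither of them listed here, and the counting setting for strand is not given in the sources used here.

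CCND3 (ENSG00000112576.13, chromosome 6, 41934933 to 42050357, minus strand), which encodes cyclin D3, was not called in either direction. It stood at 144, 145 and 129 CPM in MSLN-KO, against 134, 110 and 131 CPM in WT. The groups overlapped, with MSLN-KO replicate 3 below WT replicates 1 and 3. The log2 change was 0.16 (SE 0.08, 95% interval -0.01 to 0.33) and was not called, where a call is a Benjamini-Hochberg adjusted p under 0.05 in limma's fit across all 11363 genes. With columns rescaled to equal totals CCND3 was called higher (0.19), and likewise without MSLN-KO replicate 3 (0.21). CCND1, the gene of cyclin D1, was not among the listed genes and was not analysed here.

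**Figure D1:**
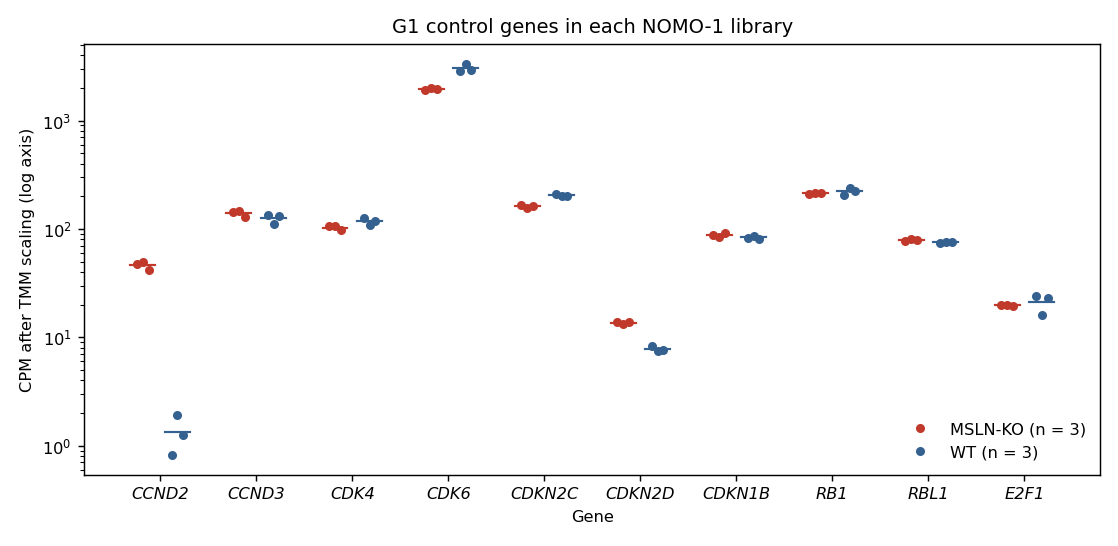
CPM of each of the 10 genes in each library on a log axis, with MSLN-KO (red, n = 3) left of WT (blue, n = 3); points are libraries and bars are group means. CCND2 separates the groups by a ratio of 34.4, while CDK6 lies above all other genes in every library.

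To add transcripts of different genes, CPM was divided by the exonic length of each gene in kb (7157 bases for CCND2 and 5802 for CCND3). On this scale CCND2 reached 6.43 ± 0.54 CPM per kb in MSLN-KO and 0.187 ± 0.079 CPM per kb in WT, and CCND3 24 ± 1.53 CPM per kb in MSLN-KO and 21.6 ± 2.29 CPM per kb in WT (mean ± SD, n = 3 each). Even after its rise, then, CCND2 stayed below CCND3 in each MSLN-KO library.

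The listed D cyclins together summed to 31.5, 31.8 and 28.1 CPM per kb in the MSLN-KO libraries, against 23.2, 19.2 and 22.8 CPM per kb in the WT libraries. Every MSLN-KO sum lay above every WT sum, and the ratio of the means was 1.4. Since CCND2 was chosen for its rise and CCND3 overlapped between the groups, this separation is a description and not a test. CCND2 supplied 21.1 ± 0.49% of the sum in MSLN-KO and 0.891 ± 0.47% in WT. Of the difference of 8.72 CPM per kb between the group means, CCND2 made up 6.24 and CCND3 2.48. To offset CCND2 in full, CCND3 would have had to lie at 15.3 CPM per kb in MSLN-KO, 29% under its WT mean, which is a log2 change of -0.49. The measured interval of CCND3, from -0.01 to 0.33, does not reach that value. This too is a description and not a test. The value of -0.49 comes from the rise for which CCND2 was chosen and is given without error. With coding length in place of exonic length the offset needed was -0.61, and the ratio of the sums was 1.46. Transcript sums say nothing of the amount of protein, and lengths over all annotated exons overstate those of the transcripts in use.

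**Figure D2:**
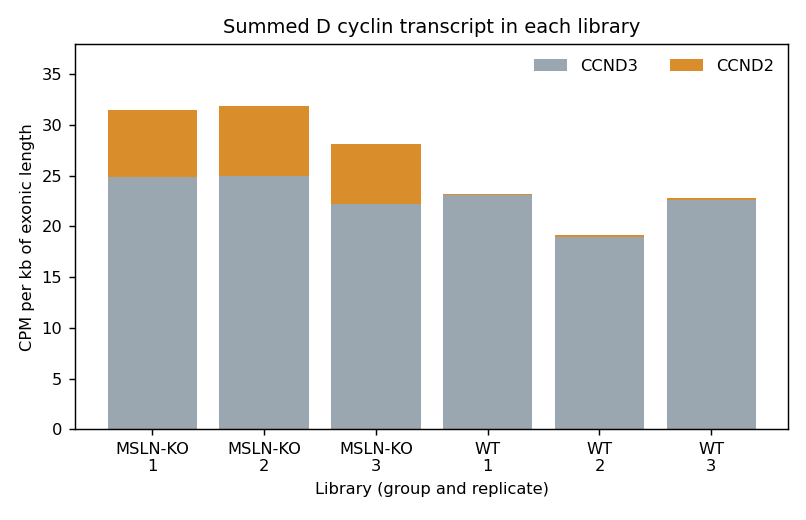
Summed level of the listed D cyclins in each library, in CPM per kb of exonic length, stacked as CCND3 (grey) and CCND2 (orange). The MSLN-KO sums run from 28.1 to 31.8 and the WT sums from 19.2 to 23.2, while the CCND3 parts overlap between the groups.

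CDK6 (ENSG00000105810.10, chromosome 7, 92604921 to 92836594, minus strand), by far the most abundant member, moved the other way. It stood at 1903, 1986 and 1969 CPM in MSLN-KO, against 2876, 3353 and 2917 CPM in WT. The groups were well apart and the MSLN-KO mean was 64.0% of the WT mean. CDK6 was called lower, with a log2 change of -0.64 (SE 0.07), in all 12 alternative fits as well. CDK6-AS1, a listed opposite-strand transcript that starts beside CDK6 and shares exonic sequence with it, stood at 4.70, 5.20 and 5.40 CPM in MSLN-KO, against 11.2, 9.87 and 11.0 CPM in WT, a small amount beside CDK6 itself.

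CDK4 (ENSG00000135446.17, chromosome 12, 57747727 to 57756013, minus strand) stood at 106, 106 and 97.0 CPM in MSLN-KO, against 125, 108 and 119 CPM in WT. The groups came close without overlapping. It was called lower with a log2 change of -0.19 (SE 0.06), but not with columns rescaled to equal totals (-0.15), without the variance trend, or without any of MSLN-KO replicates 1 and 3 and WT replicates 1 and 3 (-0.20, -0.14, -0.14 and -0.17). Its exons overlap those of TSPAN31 on the opposite strand, which stood at 26.5, 24.4 and 29.8 CPM in MSLN-KO and 24, 23.6 and 21.1 CPM in WT, and without a stated strand setting reads in the overlap cannot be told apart.

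Per kb, the 2 kinases together summed to 189, 195 and 191 CPM in MSLN-KO, against 274, 308 and 275 CPM in WT, a ratio of 0.67. Every MSLN-KO sum lay below every WT sum. CDK4 held 16.9 ± 0.85% of the sum in MSLN-KO and 13 ± 1.74% in WT, so CDK6 was the main kinase transcript in both. Kinase transcript was down and D cyclin transcript up, the latter mostly through CCND2, which was chosen for its rise. Per unit of D cyclin transcript there were 6.31 ± 0.43 units of kinase transcript in MSLN-KO and 13.3 ± 2.36 in WT (CPM per kb over CPM per kb). Both quantities depend on the length used: with coding length CDK4 held 4.95% of the sum in MSLN-KO and 3.69% in WT, and the kinase transcript per D cyclin transcript was 11.7 in MSLN-KO and 26.6 in WT.

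The INK4 genes moved in opposite directions. CDKN2C (ENSG00000123080.12, chromosome 1, 50960745 to 50974633, plus strand) stood at 166, 157 and 162 CPM in MSLN-KO, against 212, 199 and 202 CPM in WT. All MSLN-KO libraries were lower, and the gene was called lower with a log2 change of -0.34 (SE 0.05). CDKN2D (ENSG00000129355.7, chromosome 19, 10566462 to 10569059, minus strand) stood at 13.7, 13.3 and 13.9 CPM in MSLN-KO, against 8.32, 7.39 and 7.71 CPM in WT. All MSLN-KO libraries were higher, by 1.75-fold in the means, and the log2 change was 0.73 (SE 0.09), called higher.

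Per kb, CDKN2C was the more abundant of the pair in both groups, at 48.7 ± 1.31 CPM per kb in MSLN-KO and 61.6 ± 2.02 CPM per kb in WT, beside 9.07 ± 0.18 CPM per kb in MSLN-KO and 5.19 ± 0.32 CPM per kb in WT for CDKN2D. The sum of both was 59.0, 56.2 and 58.2 CPM per kb in MSLN-KO, against 69.4, 64.9 and 66.1 CPM per kb in WT, a ratio of 0.86. The rise of CDKN2D thus covered part of the fall of CDKN2C on this scale.

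The other INK4 genes, CDKN2A and CDKN2B, were not among the listed genes and were not analysed here. Values of their neighbourhood on chromosome 9, looked up after the values of MTAP had been seen, set the groups apart. Of 5 listed genes within 2 Mb of CDKN2A (21967753 to 21995301), FOCAD, HACD4, KLHL9 and MTAP were listed at 0 in every WT library. Over all 11363 listed genes, 21 were at 0 in every WT library, while 0 genes were at 0 in every MSLN-KO library. Of the 21, 7 were on chromosome 9, which held 446 of all listed genes. Genes at 0 in WT passed the authors' filter only through the MSLN-KO libraries. In the MSLN-KO libraries FOCAD stood at 12.2, 14.8 and 11.4 CPM, HACD4 at 18.3, 18.1 and 18.0 CPM, KLHL9 at 15, 12.2 and 14.4 CPM, and MTAP, the enzyme of methionine salvage next to CDKN2A, at 17.2, 17.7 and 18.5 CPM. MLLT3, the fifth and farthest, stood at 5.63, 7.53 and 7.01 CPM in MSLN-KO and at 6.65, 8.09 and 6.32 CPM in WT. The groups therefore differ in more than MSLN, and whether the changes of the G1 genes go with the loss of MSLN or with other differences between the MSLN-KO and WT cells cannot be told apart.

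CDKN1B (ENSG00000111276.12, chromosome 12, 12715058 to 12722371, plus strand) stood at 87.4, 84.8 and 90.8 CPM in MSLN-KO, against 82.8, 86.3 and 80.7 CPM in WT. The groups overlapped, and the log2 change of 0.07 (SE 0.06, 95% interval -0.05 to 0.19) was not called. CDKN1A (p21), the only listed gene of the 4 other CDK inhibitors examined, stood at 45.3, 46.7 and 41.2 CPM in MSLN-KO, against 47.6, 49.8 and 58.7 CPM in WT. It was called lower (log2 change -0.22, SE 0.08, limma adjusted p = 0.040), a call lost in 6 of 12 alternative fits. CDKN1A and CDKN1B together summed to 45.9, 45.5 and 45.8 CPM per kb in MSLN-KO, against 45.1, 47.1 and 48.0 CPM per kb in WT, and the groups overlapped.

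RB1 (chromosome 13, 48303726 to 48599436), the pocket protein that CDK4 and CDK6 phosphorylate, stood at 208, 215 and 214 CPM in MSLN-KO, against 207, 241 and 224 CPM in WT. The groups overlapped and the log2 change was -0.07 (95% interval -0.20 to 0.06). RBL1 (p107; chromosome 20, 36996349 to 37095995), whose promoter is printed above, stood at 76.7, 80.4 and 79.1 CPM in MSLN-KO, against 73.8, 75.0 and 76.5 CPM in WT. The MSLN-KO libraries all lay above the WT libraries, by a narrow margin, and the log2 change of 0.07 (95% interval -0.05 to 0.18) was not called.

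E2F1 (chromosome 20, 33675683 to 33686404), the other gene whose promoter is shown, stood at 20.0, 19.7 and 19.5 CPM in MSLN-KO, against 24.1, 15.9 and 22.8 CPM in WT. The MSLN-KO values sat inside the WT range, and WT replicate 2 was low. The log2 change was -0.06 (SE 0.12, 95% interval -0.33 to 0.20), not called. It hung on single WT libraries: without WT replicate 2 it was -0.24 and called lower, and without WT replicates 1 and 3 it was 0.047 and 0.0077.

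**Figure D3:**
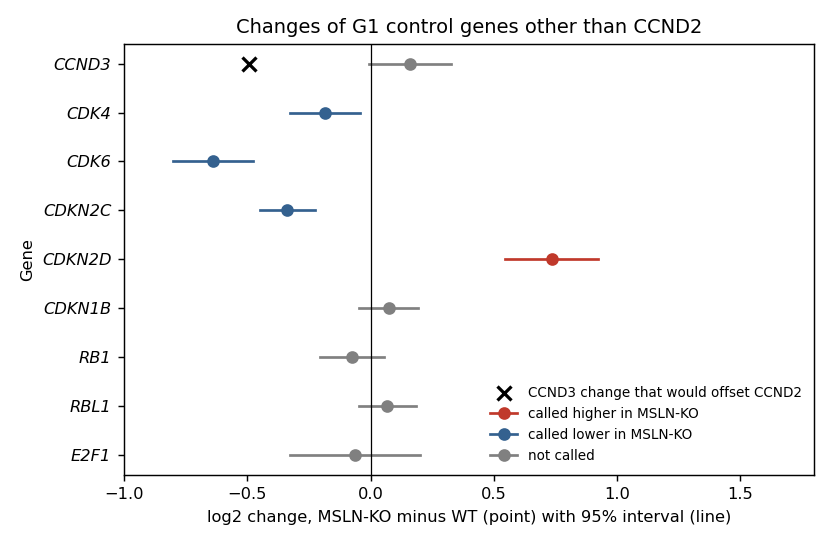
Log2 change of each gene other than CCND2 (MSLN-KO minus WT, points) with limma's 95% interval (lines), coloured by call. The cross marks the log2 change of -0.49 by which CCND3 would offset CCND2 per kb, drawn without error. The interval of CCND3 runs from -0.01 to 0.33.

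In all, 2 of the 10 genes were called higher (CCND2 and CDKN2D) and 3 lower (CDK6, CDK4 and CDKN2C), beside 45.7% of all listed genes called (22.4% higher and 23.3% lower). In 6 of the 10 the groups did not overlap, with CCND2, CDKN2D and RBL1 higher in MSLN-KO and CDK4, CDK6 and CDKN2C lower, beside 54.7% of all listed genes (26.6% higher and 28.1% lower). The median log2 change was 0.00, against 0.01 over all listed genes. Since this contrast chose the set, nothing is read from these counts.

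Per kb, the order of levels in MSLN-KO ran from CDK6 at 159 ± 3.58 CPM per kb through CDKN2C, RB1, CDK4, CDKN1B, CCND3, RBL1, CDKN2D and E2F1 to CCND2. In WT it ran from CDK6 at 249 ± 21.6 CPM per kb through CDKN2C, CDK4, RB1, CDKN1B, CCND3, RBL1, E2F1 and CDKN2D to CCND2. Libraries of neighbouring genes overlapped between RB1 and CDK4 and between CDK4 and CDKN1B in MSLN-KO, and between CDK4 and RB1 in WT. All other neighbours were apart. The order depends on the length used. Per kb of coding length, an alternative added after seeing the data, CCND2 came 7th in MSLN-KO at 43.5 ± 3.67 CPM per kb, above CDKN2D, RBL1 and E2F1, and 10th in WT at 1.26 ± 0.53 CPM per kb. CDK6 and CDKN2C led in both groups on either length.

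Within groups the set was tighter in MSLN-KO, where the median coefficient of variation over the 10 genes was 2.55% (5.60% over all listed genes), than in WT, where it was 7.48% (6.15% over all listed genes). WT replicate 2 was the highest or lowest WT library in 9 of the 10 genes, as was WT replicate 1; over all listed genes these shares were 74.5% and 66.1%.

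The genes whose profile over the 6 libraries was most like that of CCND2, by the root mean square difference of log2(CPM + 1) values centred on each gene's mean, were ZNF185, HACD4, MTAP, H4C6 and ZNF43, at 0.15, 0.22, 0.23, 0.23 and 0.23. ZNF185 stood at 22.1, 23.5 and 20.4 CPM in MSLN-KO, against 0.122, 0.310 and 0.253 CPM in WT. The other 4 were listed at 0 in every WT library, unlike CCND2. Like CCND2, all of these genes passed the authors' filter only through the MSLN-KO libraries. With only 2 groups, this likeness is mostly the size of the difference between them.

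Position was not used to choose the set. Of 8 listed genes that start within 1 Mb of CCND2, CRACR2A (log2 change 0.44) and C12orf4 (0.40) were called higher. NDUFA9 (-0.21) and ENSG00000255639 (-0.40), which starts within 1 kb of NDUFA9, were called lower. Over all listed genes 22.4% were called higher and 23.3% lower. The median of the 8 was 0.11, and TIGAR, the nearest at 34.0 kb, had a log2 change of -0.27 (SE 0.11, not called). CCND2 at 4.35 stood far outside these values, but it was chosen for its large rise.

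Of 14 listed genes that start within 1 Mb of CDK6, 8 were called lower and 1 higher (23.3% and 22.4% of all listed genes), with a median log2 change of -0.24. Beside CDK6-AS1 (-0.94), the largest falls were of CYP51A1 (-0.88), an enzyme of cholesterol synthesis, and FAM133B (-0.59). Around CDK4, 11 of 25 were called higher, 0 lower and 14 not called (22.4% of all listed genes were called higher and 23.3% lower). The median was 0.14, and the largest rises were of NDUFA4L2 (2.82), GIHCG (1.85) and the stress factor gene DDIT3 (1.57). Within 2 Mb of CDK4, 23 of 58 were called higher and 6 lower, with a median of 0.06. In the same wider window around CDK6, 1 of 17 was called higher and 10 lower, with a median of -0.20. Around CCND2 it held 13 genes, 2 called higher and 5 lower, with a median of -0.01. Within 1 Mb of the other 7 genes the medians lay between -0.13 (RB1) and 0.11 (CDKN2D).

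**Figure D4:**
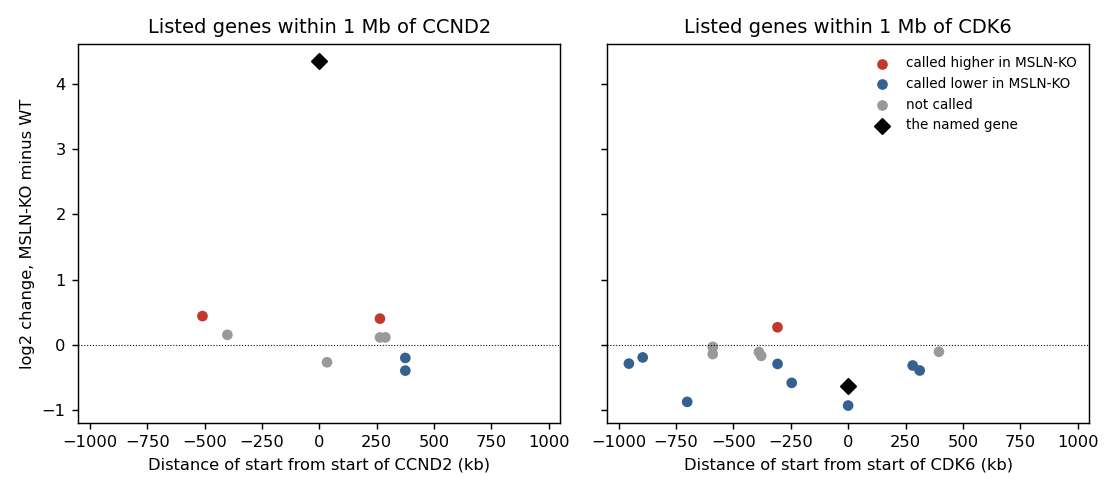
Log2 change (MSLN-KO minus WT) of each listed gene that starts within 1 Mb of CCND2 (left) and of CDK6 (right), against its distance in kb toward higher coordinates; the diamond is the named gene. CCND2, chosen for its rise, lies at 4.35, and 8 of 14 genes around CDK6 were called lower (23.3% of all listed genes).

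The rest of the G1/S pathway was read from lists chosen by function, with earlier results of these data known, so their counts describe and do not test. Among the other cyclins and kinases of G1/S, 12 of 13 were listed, 6 were called lower (50%, beside 23.3% of all listed genes) and 0 higher (beside 22.4%), with a median log2 change of -0.18. CCNE1 (cyclin E1), which acts after the D cyclins, stood at 10.8, 11.5 and 11.4 CPM in MSLN-KO, against 14.7, 13.5 and 14.2 CPM in WT, and was called lower (log2 change -0.31, limma adjusted p = 0.0081). The A cyclin genes CCNA1 (-0.42) and CCNA2 (-0.31) and the activating phosphatase gene CDC25A (-0.33) were lower too. CDK2, the partner of cyclin E, was not called (-0.02).

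Of 24 E2F target genes of S-phase entry, all listed, 15 were called lower (62.5%, beside 23.3% of all listed genes) and 2 higher (8.33%, beside 22.4%), with a median of -0.22. TK1, a thymidine kinase gene, stood at 78.1, 77.6 and 58.6 CPM in MSLN-KO, against 104, 90.1 and 115 CPM in WT (log2 change -0.53, limma adjusted p = 0.0014). The helicase subunit gene MCM4 (-0.45) and GINS1 (-0.39) fell as well. CDT1 (0.55), which loads the helicase, and RRM2 (0.24), a ribonucleotide reductase subunit, rose. While D cyclin transcript was higher in MSLN-KO, mostly through CCND2, 15 of these 24 targets were called lower. With columns rescaled to equal totals 12 were called lower, a setting in which calls over all listed genes were 2942 higher and 2278 lower. With a library left out 11 to 15 of the targets were called lower. E2F1 and RBL1, which carry E2F letters at their starts, were not called, but E2F1 was called lower without WT replicate 2 (-0.24). Which of the 24 targets carry such letters was not examined, so the letters mark no contrast between these genes.

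Among 16 partners of RB and E2F, all listed, 5 were called lower (31.2%) and 2 higher (12.5%), with a median of -0.11. In all 43.8% were called, beside 45.7% of all listed genes, so the list as a whole did not stand out by its count. LIN54 (-0.36), E2F8 (-0.35), MYBL2 (-0.35) and TFDP1 (-0.34), the last of which pairs with E2F proteins on DNA, were the largest falls. RBL2 (p130), the pocket protein of resting cells, stood at 136, 132 and 145 CPM in MSLN-KO, against 110, 116 and 110 CPM in WT, and rose (log2 change 0.30, limma adjusted p = 0.00078). LIN37 rose too (0.44).

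Of 15 transcription factors linked to D cyclin genes, all listed, 4 were called higher (26.7%, beside 22.4% of all listed genes) and 2 lower (13.3%, beside 23.3%), with a median of 0.09. The 40% called was no more than the 45.7% of all listed genes. MYC, which can raise CCND2, stood at 260, 253 and 232 CPM in MSLN-KO, against 200, 176 and 160 CPM in WT (log2 change 0.48, limma adjusted p = 0.00023). MXD3 (0.35), the Polycomb gene BMI1 (0.26) and STAT5B (0.15), a transducer of cytokine signals, rose. MXD4 (-0.38) and MXD1 (-0.22) fell. FOXO1 (0.10), FOXO3 (-0.07) and STAT5A (-0.08) were not called. The part of these factors in the rise of CCND2 was not tested.

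For the turnover of D cyclins and p27, 16 of 17 genes were listed, 6 were called lower (37.5%, beside 23.3% of all listed genes) and 1 higher (6.25%, beside 22.4%), with a median of -0.06. In all 43.8% were called, again close to the 45.7% of all listed genes. SKP2, the ubiquitin ligase subunit that marks p27 for destruction, stood at 142, 134 and 148.9 CPM in MSLN-KO, against 203, 203 and 221 CPM in WT (log2 change -0.56, limma adjusted p = 6.6e-06). COPS5 (-0.41), DDB1 (-0.41) and FBXO4 (-0.40) fell, and GSK3B (0.16), a kinase that marks cyclin D1 for export and decay, rose. AMBRA1, the ligase subunit that targets all D cyclins, was not called (-0.06).

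**Figure D5:**
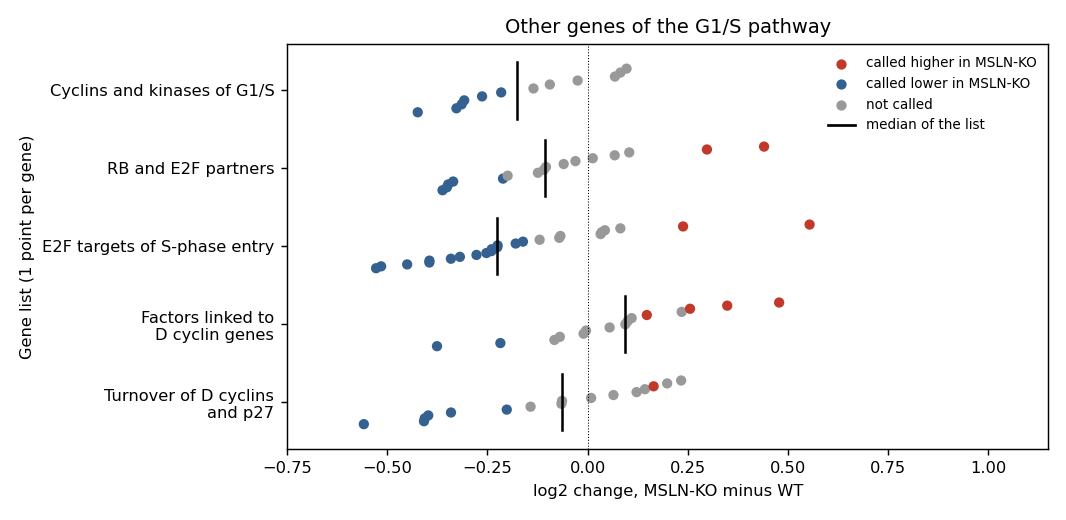
Log2 change (MSLN-KO minus WT) of each listed gene in 5 lists of the G1/S pathway, 1 point per gene coloured by call, with the median of each list as a black line. The E2F targets of S-phase entry lie mostly below 0, with a median of -0.22, and all changes are within 0.56 of 0.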

How the data were processed

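RNA was measured in 6 NOMO-1 libraries, 3 of MSLN-KO and 3 of WT cells, from a stranded total RNA kit with ribosomal depletion, per the labels' protocols. The deposited table holds CPM after TMM scaling by the authors, 1 column per library. The submitters' processing notes name GRCh38/hg38 as the build and edgeR, featureCounts and STAR as tools, without versions; the strand setting is not stated. In each column 100% of values were whole multiples of 1 step within 0.01 of it, which gave the reads per library; the median gene had 800 to 1080 reads. Replicates were distinct libraries by the chi-square over genes divided by its degrees of freedom. It was 2.71 between MSLN-KO replicates 1 and 2, by far the closest pair. The other pairs within a group gave 7.35 to 14.8.

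MSLN-KO was compared with WT by limma 3.58.1 (R 4.3.3; lmFit, eBayes with trend, two-sided) on log2(CPM + 1), without covariates, after a test on simulated data. The log2 scale understates changes of low genes. Coordinates and lengths came from GENCODE 29. The members and lists were chosen with earlier results of these data known. The genes named are all members, up to 4 called genes in each direction of each list, the 5 nearest in profile to CCND2, and up to 3 called neighbours in each direction; other genes (AMBRA1, CDK2, FOXO1, FOXO3, STAT5A, TIGAR and those near CDKN2A) were chosen after their values were seen. A few of the genes so picked are left out of the text. Alternatives changed the pseudocount (0.5 and 5), the filter (mean of 5 CPM), scaling, variance trend, length, window and replicate block, and left out each library.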

Additional observations from a re-analysis of the deposited data

How the results depend on the processing

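CDK6, CDKN2C and CDKN2D kept their direction and call in all 12 alternative fits (CCND2 is left out, since the choice of the genes fixed its direction), and CDKN1B, RB1 and RBL1 stayed uncalled in all of them. CCND3 became called with rescaled columns (0.19) and ranged from 0.069 to 0.21 when a library was left out. CDK4 lost its call with rescaled columns (-0.15) and without the variance trend (-0.19), and ranged from -0.24 to -0.14 with a library left out. E2F1 ranged from -0.24 (without WT replicate 2) to 0.047 (without WT replicate 1), with 0.0077 without WT replicate 3. The cause was not tested. Among the other inhibitors, 0 genes were lower, against 1 (CDKN1A), with rescaled columns, without the trend and with the replicate block, and 0 to 1 with a library left out. Among factors linked to D cyclin genes, 1 was lower with rescaled columns, and 1 to 2 with a library left out. Among turnover genes, 2 were higher with a pseudocount of 5, 3 with rescaled columns, and 0 to 2 with a library left out. Over all listed genes the calls ranged from 1947 to 2486 higher and 2139 to 2628 lower with a library left out. Rescaling shifted the median log2 change of all genes by 0.03. It moved the calls over all listed genes from 2545 higher and 2652 lower to 2942 higher and 2278 lower.

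The ratio of D cyclin sums ranged from 1.32 to 1.46 with a library left out and was 1.47 without division by length. The ratio of INK4 sums was 0.83 with coding length and 0.83 without division by length, and 0.85 to 0.88 with a library left out. The replicate numbers did not pair the libraries (correlations of same-numbered deviations 0.19, -0.17 and -0.09). With the replicate block, 2413 genes were called higher and 2533 lower, and the calls of the 10 genes did not change. Not every library matched its own number best, since MSLN-KO replicate 3 correlated best with WT replicate 2 (0.30). Count tests on recovered reads with edgeR or DESeq2, planned as alternatives, were not run. Depth limits CCND2 in WT, which rests on 20 to 50 reads a library.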
